A study of Arabidopsis thaliana with 12 samples.

Results

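A set of 197 probe sets was lower in rosettes of the atx1 mutant of Arabidopsis thaliana than in wild type, both in watered plants and under water deficit. A probe set is a group of short probes on an Affymetrix ATH1 array that together measure 1 transcript, and its level is given here as a log2 signal, on which a difference of 1 is a 2-fold difference. The set was chosen by its measured values: of 22746 probe sets that are not controls, 207 had a mean at least 1.5 lower in atx1 than in wild type in each water state (a difference of -1.5 or below), and 10 of them were left out by name. The levels in wild type and atx1 that follow are therefore a description of the choice and carry no test. Of the 197 members, 98 were joined to 1 gene, 11 to several genes and 88 had no gene listed.

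The 12 arrays held 3 genotypes, each watered or under water deficit, with 2 biological replicates in each of the 6 groups. Wild type was Columbia-0, atx1 a mutant of ATX1, and MYO-OX a line that overexpresses MYO1, the Arabidopsis myotubularin homolog; the sources used here do not name the allele of atx1 or its parent accession, the promoter of the transgene or the number of plants per RNA sample. Any accession difference between atx1 and wild type therefore cannot be told apart from the mutation. All plants were 4 weeks old, and vegetative rosettes were either kept watered or left without water to a relative water content of 65%. The levels of ATX1 and MYO1 themselves were not analysed here.

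ATX1 is a histone methyltransferase of the trithorax group, and the mark it places on histone H3 is found at genes that are being transcribed. Myotubularins are phosphatases that remove a phosphate from phosphoinositides, the signalling lipids of membranes. Both proteins have been studied for their part in the response of Arabidopsis to drought, in which leaves close their stomata and switch on genes for protective proteins, while growth genes are turned down.

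The arrays of a group correlated at 0.928 to 0.987 over all probe sets. On the first principal component, with 58% of the variance, watered arrays spanned -92.32 to -49.79, deficit arrays of wild type and MYO-OX spanned 85.77 to 111.1, and the deficit arrays of atx1 lay in the gap, at -10.54 and 27.53. The GAPDH control probe sets, whose 3' minus 5' signal rises with RNA breakdown, differed by 1.742 and 1.193 on the 2 deficit arrays of atx1 and by at most 1.088 elsewhere. The spiked hybridization controls stood at 10.03 and 9.658 on those 2 arrays and between 8.171 and 9.606 on the others. These values move with every atx1 level under water deficit given below, and their part in those levels was not tested. RCA, the rubisco activase gene of leaves and the only 1 of 8 leaf markers measured under its name, had group means between 12.27 and 13.41. In bulk rosette RNA, fewer cells of a type and less RNA per cell cannot be told apart.

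Over the 197 members the median difference of atx1 from wild type was -2.21 in watered plants, with a range from -7.65 to -1.51, and -2.23 under water deficit, from -7.09 to -1.51. Over all probe sets these medians were 0.04 and 0.01. The gap was wider in watered plants for 89 members and wider under water deficit for 108. A difference of -2 or below in both water states was seen in 79 members, -3 or below in 21 and -4 or below in 6. At the threshold, AT3G27200 lay just inside with differences of -1.51 watered and -3.39 under deficit, and AT3G55840 just outside with -1.498 and -2.29. EXLB1 and AT4G20480 entered narrowly through the deficit difference, which was -1.52 for each, and AT3G02910 and AT1G72060 through watered differences of -1.51 and -1.52. Also just outside were AT3G18560 with a watered difference of -1.4965, AT5G56380 with a deficit difference of -1.495, and AR781 and AT3G16530 with watered differences of -1.493 and -1.488.

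**Figure D1:**
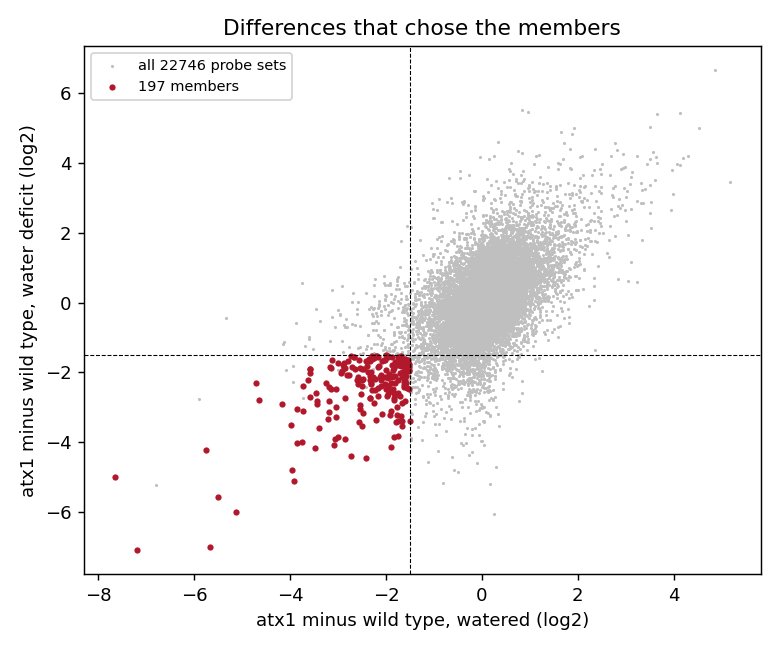
Difference of atx1 from wild type for each probe set, watered on the horizontal axis and under water deficit on the vertical axis, both on the log2 scale. Grey points are all 22746 probe sets, red points the 197 members, and the dashed lines mark -1.5; grey points in the same corner are the 10 probe sets left out by name.

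Arrays of atx1 lay below both wild-type arrays in both water states for 195 members, beside 10.4% of all probe sets. In watered plants alone the count was 196 (19.4% of all) and under deficit 195 (28.8% of all). The exceptions were the unlisted probe sets 261892_at and 252415_at, and nothing is read from these counts because the rule used the same arrays. The median level of the members on the 2 arrays of each group was 8.656 and 8.133 in watered wild type, 5.84 and 5.834 in watered atx1, and 8.109 and 8.488 in watered MYO-OX. Under water deficit it was 8.959 and 8.67 in wild type, 6.036 and 6.045 in atx1, and 8.229 and 8.912 in MYO-OX. The 4 atx1 arrays thus stood near the median of all probe sets, which was between 5.89 and 6.24 on every array, and the 8 arrays of the other genotypes stood above it.

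**Figure D2:**
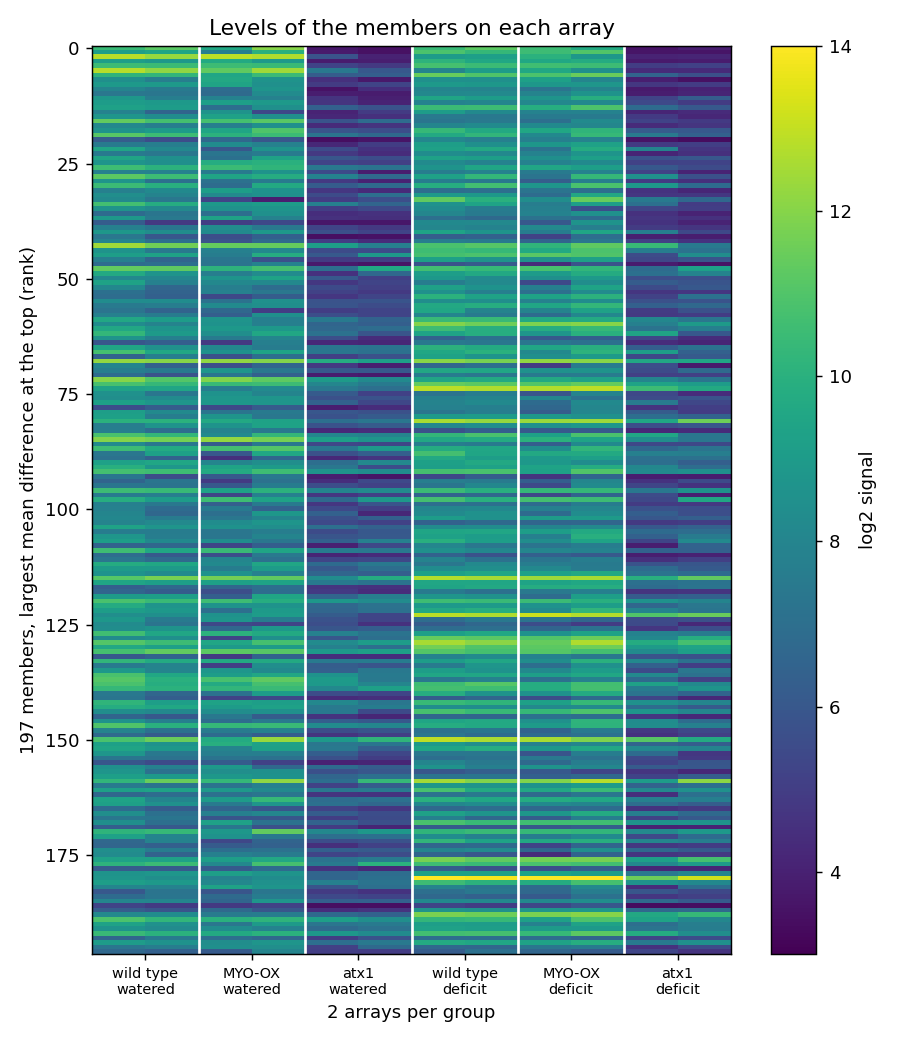
Log2 signal of the 197 members (rows, ordered by the mean difference of atx1 from wild type) on the 12 arrays (columns, 2 per group, replicate 1 at the left of each pair). The 4 atx1 columns are darker than the wild-type and MYO-OX columns in the same water state over almost the whole height.

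The named members with the largest gaps were at or close to the bottom of the scale in atx1. AT3G47250, a gene of the DUF247 family of unknown function, read 9.19 and 9.45 on the watered wild-type arrays, 3.79 and 3.504 in watered atx1 and 7.71 and 9.97 in watered MYO-OX. Under water deficit it read 10.90 and 10.31 in wild type, 3.61 and 3.60 in atx1 and 10.55 and 10.99 in MYO-OX. All 4 atx1 arrays lay below every other array, and the group means were 51-fold lower than wild type in watered plants and 128-fold lower under deficit. AT1G23960 was alike, at 9.16 and 8.85 in watered wild type and 3.84 and 3.92 in watered atx1, and at 10.11 and 9.57 against 3.80 and 3.85 under deficit. Its MYO-OX arrays, at 9.69 and 8.95 watered and 9.54 and 9.77 under deficit, fell among those of wild type or close to them.

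AT1G66100, which encodes a thionin, a small antimicrobial peptide of the cell wall, had the widest watered gap of all probe sets. It read 12.83 and 12.32 in watered wild type, 5.80 and 4.05 in watered atx1 and 12.89 and 12.69 in watered MYO-OX. Under deficit it read 9.03 and 9.19 in wild type, 4.09 and 4.15 in atx1 and 10.03 and 8.82 in MYO-OX. The watered level in atx1 was 201-fold below wild type and the deficit level 31.8-fold below, the gap being narrower where wild type itself was lower.

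The widest deficit gap belonged to 256601_s_at, a probe set with no gene listed, whose name ending marks probes that can match several transcripts. It read 10.40 and 11.19 in watered wild type against 3.69 and 3.5001 in atx1, and 10.44 and 11.24 under deficit against 3.57 and 3.93. The differences were -7.19 and -7.09, and the 4 MYO-OX arrays lay between 9.55 and 11.98. Another unlisted probe set, 257008_at, differed by -5.74 in watered plants and by -4.22 under deficit, from wild-type arrays at 12.78 and 12.17 watered and 7.96 and 9.08 under deficit. Probe sets with this ending made up 8.12% of members and 4.11% of all probe sets.

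In 13 members the atx1 mean was at or below the 25th percentile of all probe sets in both water states. None of the 13 was that low in wild type, which the rule fixed in advance by asking for a gap of at least 1.5. Such low levels may be background signal, and the folds of these members are not exact. Besides AT3G47250, AT1G23960 and 256601_s_at they included AT1G76960, with differences of -3.95 watered and -4.80 under deficit, and AT2G32160, with -3.48 and -4.15. AT2G32160 was steady in wild type, at 7.36 and 7.34 watered and 8.13 and 8.19 under deficit, and read 3.83 to 4.14 on the 4 atx1 arrays. Over the 13, the median difference was -3.25 in watered plants and -4.004 under deficit, and over the other 184 members it was -2.16 and -2.21. The 13 were picked by their low atx1 level, so nothing is read from this contrast.

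**Figure D3:**
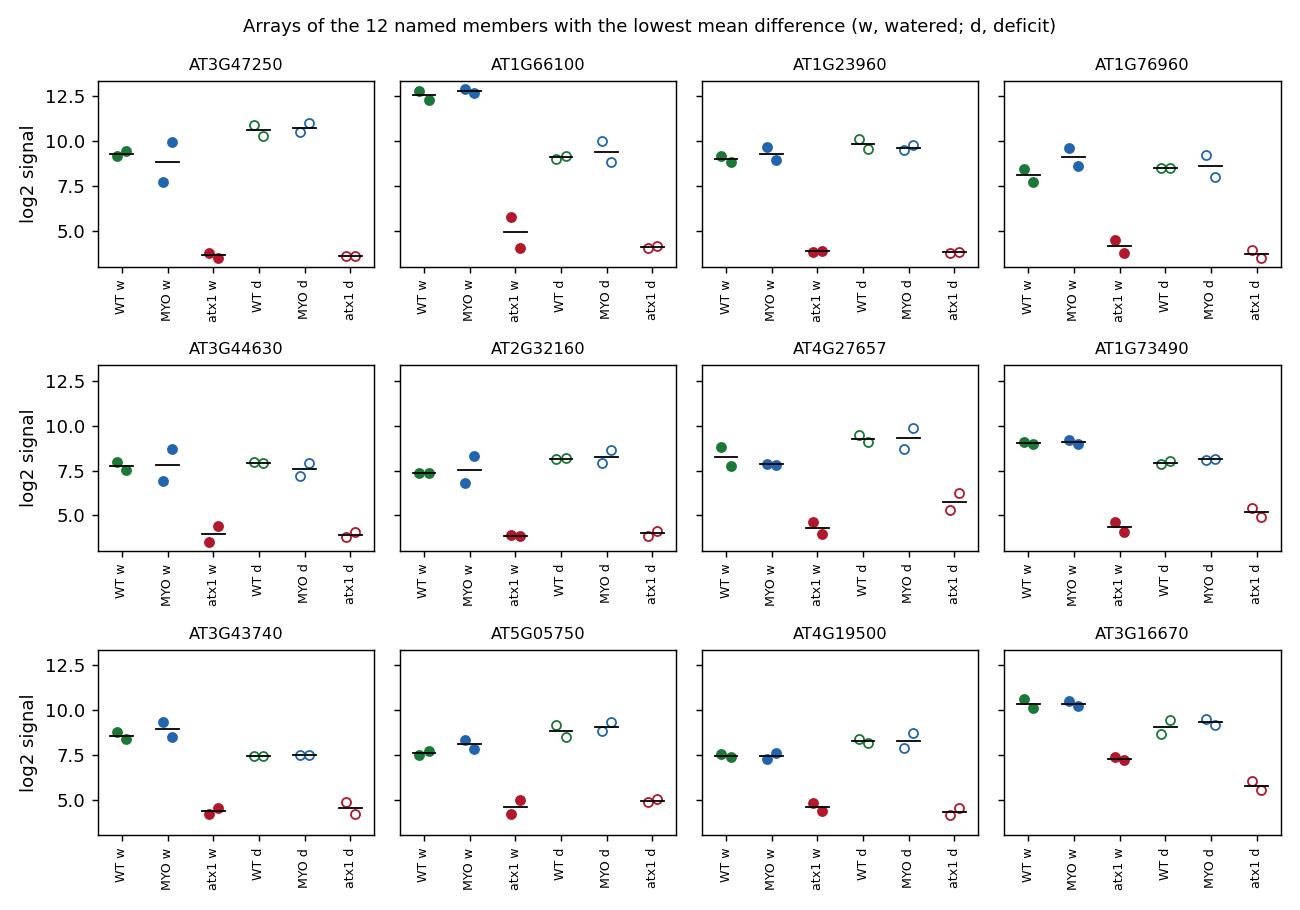
Log2 signal on each array for the 12 named members with the lowest mean difference, with watered plants as filled points, water deficit as open points, wild type in green, MYO-OX in blue and atx1 in red. Black bars are group means of 2 arrays; in each panel the atx1 points lie below all wild-type and MYO-OX points of the same water state.

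Genes of several kinds could be recognised among the members that had a gene name. These kinds, and the genes named within them, were put together after the values were seen, from general knowledge of the loci, and nothing is said of how often such genes occur elsewhere on the array. The widest kind held 7 genes for TIR-type immune receptors, intracellular proteins that detect pathogen molecules and set off defence: AT3G44630, AT4G19500, AT4G19530, AT1G63880, AT1G66090, AT1G72900 and CSA1. Their differences ranged from -3.76 to -1.57 in watered plants, with a median of -2.57, and from -4.004 to -1.64 under deficit, with a median of -2.73. AT3G44630 read 7.96 and 7.5003 in watered wild type and 3.53 and 4.42 in watered atx1. Under deficit it read 7.95 and 7.92 in wild type and 3.79 and 4.07 in atx1. The wild-type level was thus nearly the same in both water states, and none of the 8 arrays overlapped between the genotypes.

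AT4G19500, a receptor gene of the locus for downy mildew resistance RPP2, read 7.53 and 7.36 in watered wild type against 4.82 and 4.39 in atx1. Under deficit it read 8.36 and 8.13 against 4.13 and 4.54. Its neighbour AT4G19530 showed the smallest gap of the receptor genes, with atx1 arrays spread from 5.07 to 6.76 in watered plants and from 4.55 to 5.52 under deficit. AT1G63880 differed by -2.57 watered and -3.43 under deficit, and AT1G66090 by -3.20 and -2.41. CSA1, a receptor gene first known from shade avoidance, read 6.16 and 6.12 in watered wild type and 4.61 and 4.26 in atx1, with differences of -1.70 and -1.79. AT1G72900 differed by -1.83 and -2.73.

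Receptor genes and other members lay side by side on the chromosomes in a few places. AT1G66090 and the thionin gene AT1G66100 are adjacent among the protein-coding genes of the TAIR10.1 annotation. The same holds for AT5G44050, for an efflux carrier of the MATE family, and AT5G44060. Between AT4G19500 and AT4G19530 lie 2 protein-coding genes. AT5G44060 differed by -1.63 in watered plants and -1.76 under deficit. Of the protein-coding genes listed for a probe set of their own, members made up 1.06% on chromosome 1 (34 of 3218) and 0.696% on chromosome 2 (13 of 1869). They made up 0.756% on chromosome 3 (19 of 2512), 0.965% on chromosome 4 (17 of 1761) and 0.419% on chromosome 5 (12 of 2864). No protein-coding plastid gene was a member, of 69 measured.

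Calcium-binding proteins formed another kind, with 4 members: the calmodulin-like genes CML23 and CML37 and the EF-hand genes AT4G27280 and AT3G01830. Such proteins bind the calcium that enters the cytosol on touch, wounding or drought. Their differences ran from -3.58 to -1.84 in watered plants and from -3.86 to -2.02 under deficit. CML37 read 6.21 and 4.83 in watered wild type, 3.69 and 3.67 in watered atx1, 8.24 and 8.18 in wild type under deficit and 4.598 and 4.10 in atx1 under deficit. The gap of CML37 was wider under deficit, where the wild-type arrays stood higher and the atx1 arrays within 1 of their watered level. AT4G27280 showed the reverse, with wild type at 12.45 and 11.61 watered and 10.84 and 11.11 under deficit. Its atx1 arrays under deficit were far apart, at 10.40 and 7.499, so the deficit difference of -2.02 rested largely on atx1 replicate 2. CML23 differed by -2.09 and -3.20, and AT3G01830 by -2.003 and -2.47.

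The transcription factors were the AP2/ERF genes ORA47, which acts in jasmonate synthesis, AT1G19210 and AT4G16750, the defence gene WRKY22 and the GRAS gene AT3G46600. ORA47 read 10.69 and 9.79 in watered wild type and 7.81 and 6.60 in watered atx1. Under deficit it read 8.61 and 9.37 in wild type and 7.04 and 4.97 in atx1. The replicates of atx1 differed by more than 1 in each water state, and the lowest wild-type array was still above the highest atx1 array. Differences of the other 4 ran from -2.35 to -1.54 in watered plants and from -2.10 to -1.63 under deficit, with WRKY22 at -1.81 and -2.10. AT4G29780, for a nuclease-like protein, stood higher than most, at 10.51 and 9.95 in watered wild type and 6.22 and 6.79 in atx1. Its deficit arrays of atx1 read 8.87 and 6.86 against 9.86 and 10.65 in wild type.

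Among enzymes that attach ubiquitin or recruit its targets were the U-box ligases PUB19 and PUB23, which act in drought and immune responses, and AFR, an F-box protein of far-red light signalling. PUB23 read 7.58 and 7.69 in watered wild type and 4.72 and 5.15 in atx1, and differed by -2.70 watered and -1.85 under deficit. AFR differed by -2.33 and -2.74. Other secreted defence proteins beside the thionin were OSM34, an osmotin, with differences of -2.03 and -1.63, and the matrix metalloprotease gene AT1G24140, with -2.85 and -2.74. Transport genes were SWEET2, for a sugar carrier of the vacuole, with -1.61 and -2.81, and the MATE genes AT5G52050, with -2.48 and -2.19, and AT5G44050, with -2.09 and -1.67. SWEET2 had uneven atx1 arrays, at 6.396 and 7.79 watered and 5.29 and 8.19 under deficit. Kinase genes were AT1G11280, of the S-locus lectin family, with -2.99 and -1.74, the malectin-like receptor kinase gene AT5G39030, with -1.75 and -2.59, and AT4G25390, with -1.83 and -2.60.

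NAI2, needed to form the ER bodies in which plants of this family store defence enzymes, read 6.93 and 6.10 in watered wild type and 4.14 and 4.36 in watered atx1. Under deficit it read 6.48 and 5.77 against 3.92 and 4.04. PYK10, for the main enzyme of ER bodies and the only 1 of 8 root markers measured under its name, moved with NAI2 in watered plants. Its mean was 10.57 in watered wild type, 6.69 in watered atx1 and 10.08 in watered MYO-OX, and 7.85, 7.27 and 7.72 under deficit. It missed the rule under deficit, where it differed by -0.58, and the part of root tissue in the NAI2 values was not tested.

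Of the further named members with large gaps, AT1G73490, for an RNA-binding protein, differed by -4.65 watered and -2.78 under deficit, and AT3G43740, for a leucine-rich repeat protein, by -4.18 and -2.91. AT4G27657 differed by -3.97 and -3.52, and AT5G05750, for a DnaJ-type chaperone, by -3.01 and -3.86. AT3G16670, of the Ole e 1 family of pollen allergen-like proteins, differed by -3.04 and -3.28, and AT1G35612, a transposable element gene, by -3.46 and -2.58. In all 6 the gap exceeded 2 in both water states, and in 4 of them it was wider in watered plants. AT5G17350 differed by -3.43 and -2.82, AT1G12400, for a small subunit of the transcription factor TFIIH, by -2.48 and -3.15, and AT2G18690 by -2.55 and -2.94. AT4G17245 and AT1G25400 had uneven watered atx1 arrays, at 6.08 and 8.93 and at 5.53 and 7.01, and differed by -1.75 and -1.90 in watered plants and by -3.84 and -4.13 under deficit.

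MYO-OX arrays took no part in the choice of members. The MYO-OX mean stood nearer to wild type than to atx1 for 178 of 197 members in watered plants and 194 under deficit. The members were chosen for a wide gap between atx1 and wild type, so any line near wild type would give high counts. The same counts over all probe sets were not made, and nothing is read from them. The MYO-OX minus wild type difference had a median of -0.19 in watered plants, from -3.23 to 1.36, and of -0.16 under deficit, from -1.30 to 0.74. Over all probe sets the medians were 0.01 and 0.03. The comparison shares the wild-type arrays that chose the members, so it carries no test. MYO-OX was within 1 of wild type in both water states for 163 members, or 82.7%, beside 98% of all probe sets. Members also varied more between replicates. Their median standard deviation was 0.50 in watered MYO-OX and 0.37 in watered wild type, beside 0.30 and 0.16 over all. Nothing is therefore read from the count within 1 of wild type. Both MYO-OX arrays lay above both atx1 arrays in both water states for 158 members, beside 8% of all probe sets. In watered plants the count was 176 (16.5% of all) and under deficit 177 (27.3% of all). These counts share the atx1 arrays that chose the members for their low level, so nothing is read from them.

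The MYO-OX mean was below that of wild type for 124 members in watered plants, or 62.9%, where 48.2% of all probe sets were, and for 138 members under deficit, or 70.1%, where 43.5% of all were. Arrays of MYO-OX lay below both wild-type arrays without overlap for 40 members in watered plants (11.4% of all probe sets) and for 22 under deficit (10.1% of all). In both water states this held for 7 members, beside 1.25% of all. These 7 were AT1G24140, AFR, AT1G64500, AT2G21860, AT2G15020, AT1G69160 and 264348_at, named after their values were seen. All these counts share the wild-type arrays of the rule, which favoured a high wild-type mean, so nothing is read from them. AT2G15020 read 8.33 and 7.25 in watered wild type, 5.40 and 5.25 in MYO-OX and 5.66 and 4.59 in atx1. Its MYO-OX level lay among the atx1 arrays in watered plants, and under deficit MYO-OX at 5.58 and 4.96 again overlapped atx1 at 5.46 and 4.29. For AFR, MYO-OX lay between the others, at 8.68 and 7.74 in watered plants, against 9.59 and 9.07 in wild type and 7.51 and 6.50 in atx1.

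A gap of at least 1.5 between MYO-OX and wild type was seen in 5 members in watered plants and in none under deficit. The widest was at 251428_at, an unlisted probe set named for this value, with 5.20 and 3.93 in watered MYO-OX, 8.21 and 7.37 in wild type and 4.96 and 5.63 in atx1. It was the only member whose MYO-OX mean lay below that of atx1, with a difference of -0.73, and it did so in watered plants alone. AT4G29780 had a MYO-OX difference of -1.95, from arrays at 6.88 and 9.68, so that MYO-OX replicate 1 alone was near the atx1 level. In the other direction AT4G19530 was the 1 member with both MYO-OX arrays above both wild-type arrays in both water states, beside 1.57% of all probe sets. It read 8.46 and 8.42 in watered MYO-OX and 7.34 and 7.64 in wild type, and 7.32 and 7.50 against 6.73 and 6.62 under deficit.

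The 13 members lowest in atx1 were picked by their atx1 level, so nothing is read from their wider gap to wild type. Their MYO-OX minus wild type median was 0.14 in watered plants and -0.17 under deficit, and over the other 184 members it was -0.22 and -0.16. Arrays of MYO-OX lay below wild type without overlap for 0 of the 13 in watered plants and 1 under deficit, and for 40 and 21 of the 184. Over all probe sets the shares were 11.4% in watered plants and 10.1% under deficit. The counts share the wild-type arrays of the rule, so nothing is read from them.

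**Figure D4:**
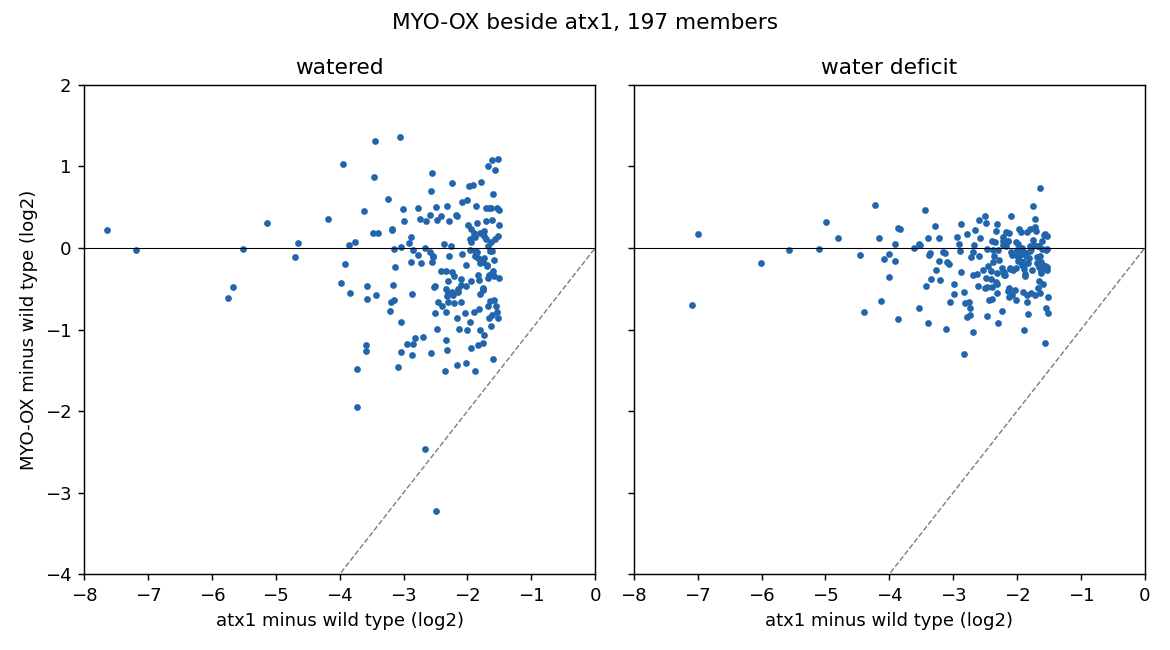
Difference of MYO-OX from wild type (vertical axis) against that of atx1 from wild type (horizontal axis) for the 197 members, watered at the left and under water deficit at the right, on the log2 scale. Points on the solid line have equal means in MYO-OX and wild type and points on the dashed line equal means in MYO-OX and atx1; both axes share the wild-type arrays. Deficit values lie between -1.30 and 0.74.

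The 2 MYO-OX replicates were uneven over these genes. They were uneven in the control probe sets as well. The GAPDH 3' minus 5' signal was 1.088 and 1.04 on replicate 1, watered and under deficit, against 0.444 and 0.746 on replicate 2. The hybridization controls stood at 9.42 and 9.61 against 8.33 and 8.78. The part of these control values in the gaps between replicates was not tested. Under water deficit, MYO-OX replicate 1 was at least 1 below replicate 2 in 58 members, or 29.4%, where 3.74% of all probe sets were. It was at least 1 above replicate 2 in 4 members, or 2.03%, beside 1.94% of all. In watered plants, MYO-OX replicate 1 was at least 1 below in 54 members, or 27.4%, beside 12.9% of all. It was at least 1 above in 18, or 9.14%, beside 9.88% of all. Calcium, transcription factor and defence genes were among the 58 members that were lower on replicate 1 under deficit. CML37 read 6.04 on replicate 1 and 8.64 on replicate 2, ORA47 7.66 and 9.18, AT1G72900 5.44 and 8.28, and AT3G10930, for a small secreted peptide, 5.44 and 8.39. Replicate 1 of these 4 genes thus lay between atx1 and wild type, or, for AT3G10930, below the atx1 arrays at 6.21 and 5.85. In watered wild type, replicate 1 was at least 1 above replicate 2 in 35 members and at least 1 below in 5, counts not made over all probe sets. Replicate 1 was the higher in 77.2% of members there, beside 55.6% of all probe sets. The 2 atx1 deficit arrays were more than 1 apart in 52 members, or 26.4%, beside 8.01% of all. They were more than 2 apart in 19, a count not made over all probe sets.

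The response of MYO-OX to water deficit was the one contrast whose means came from no array of the rule. It was tested with limma across all probe sets, with adjusted p under 0.05 as the threshold, and its spread was estimated from all 12 arrays, those of the rule included. Of the 197 members, 62 passed, or 31.5%, where 24.7% of all probe sets passed. The members that passed were 41 that rose, or 20.8% beside 10.7% of all, and 21 that fell, or 10.7% beside 14% of all. Another 135 did not pass. Members that rose had a median change of 2.33, from 0.84 to 6.26, and those that fell a median of -1.95, from -3.62 to -0.97. Members were brighter than most probe sets, with a median level of 8.35 in watered wild type beside 6.08 over all, and without the dimmest 40% of probe sets the shares were 34.7% of members and 39.7% of all, with 43 members that rose and 25 that fell. The count rested heavily on a single array. Without MYO-OX deficit replicate 2 it was 35 members, of which 19 rose and 16 fell, with 11.8% of all probe sets called. With the 4 MYO-OX arrays fitted alone, 20 members passed, 13 higher and 7 lower, beside 5.17% of all.

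PUB19 and EXLB1 had the largest rises among members with a single gene. PUB19, a ubiquitin ligase that limits the response to abscisic acid and drought, read 7.58 and 7.65 in watered MYO-OX and 11.80 and 12.01 under deficit. It rose by 4.29 (SE 0.250, limma adjusted p = 0.000122), or 19.6-fold, and both deficit arrays lay far above both watered arrays. In wild type PUB19 read 8.18 and 8.34 watered and 11.81 and 11.58 under deficit, and in atx1 6.78 and 6.45 and then 9.63 and 10.35. The deficit differences were thus 3.43 in wild type and 3.38 in atx1, and atx1 differed from wild type by -1.65 before and -1.70 after.

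EXLB1, an expansin-like gene, rose by 4.09 in MYO-OX (SE 0.324, limma adjusted p = 0.00027), from 8.59 and 9.06 to 13.12 and 12.71. Wild type read 8.45 and 8.50 watered and 12.84 and 12.70 under deficit, a difference of 4.29. In atx1 it read 6.19 and 5.28 and then 10.997 and 11.49, a difference of 5.51. The gap between atx1 and wild type was therefore narrower under deficit, at -1.52, than in watered plants, at -2.74. DI21, named as drought-induced, rose by 2.40 (SE 0.680, limma adjusted p = 0.0341) from watered arrays at 9.29 and 7.16 to 10.64 and 10.62. Its differences in wild type and atx1 were 2.93 and 2.57.

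AT1G68620, for an alpha/beta hydrolase, rose by 3.83 in MYO-OX (SE 0.492, limma adjusted p = 0.0014), beside differences of 2.48 in wild type and 2.17 in atx1. AT3G15760 rose by 3.73 (SE 0.418, limma adjusted p = 0.000837). Its deficit difference was 3.64 in wild type and 1.92 in atx1, where the deficit arrays read 7.78 and 9.001 against 11.97 and 11.59 in wild type. AT1G62510, of the lipid-transfer protein family, rose by 2.89 (limma adjusted p = 0.00584) and AT2G28400 by 2.33 (limma adjusted p = 0.00707). For both the atx1 difference, 3.39 and 2.62, was above that of wild type, 2.38 and 2.22.

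AT1G30700, for an enzyme of the berberine bridge family, rose by 2.81 in MYO-OX (SE 0.734, limma adjusted p = 0.0257). It read 7.25 and 6.48 in watered wild type and 9.49 and 7.91 under deficit, and 4.98 and 5.27 in watered atx1 and 4.91 and 5.72 under deficit. The deficit and watered arrays overlapped in atx1 but not in wild type, with differences of 0.19 and 1.83. AT3G47250 rose by 1.93 (SE 0.604, limma adjusted p = 0.0493), with 1.29 in wild type and -0.04 in atx1, and AT2G38790 by 2.19 (limma adjusted p = 0.0266), with 2.36 and 1.88. The calls of AT1G30700, DI21, AT2G38790 and AT3G47250 ended when some single array was left out, and without MYO-OX deficit replicate 2 the limma adjusted p was 0.152, 0.125, 0.138 and 0.197. The change of DI21 was 1.34 without MYO-OX watered replicate 2, and that of AT3G47250 was 0.80 without MYO-OX watered replicate 1 and 3.06 without replicate 2. The kinase genes AT4G25390, at 1.91 (limma adjusted p = 0.00141), and AT5G39030, at 1.33 (limma adjusted p = 0.0364), rose as well, as did AFR, at 1.51 (limma adjusted p = 0.0332), and AT1G67880, for a glycosyltransferase, at 1.22 (limma adjusted p = 0.0177).

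Members that fell in MYO-OX included secreted and transport proteins. AT5G19240, for a GPI-anchored protein, read 10.79 and 11.32 in watered MYO-OX and 7.05 and 7.82 under deficit. It fell by 3.62 (SE 0.677, limma adjusted p = 0.00679), or 12.3-fold. In wild type it read 11.09 and 9.99 watered and 7.41 and 7.83 under deficit, and in atx1 8.99 and 7.46 and then 6.76 and 5.10. The differences were -2.93 and -2.29, and in each genotype both deficit arrays lay below both watered arrays.

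The thionin gene AT1G66100 fell by 3.37 (SE 0.555, limma adjusted p = 0.00408), or 10.3-fold. Its difference was -3.46 in wild type and -0.81 in atx1, where it was already at 5.80 and 4.05 in watered plants. AT5G44050, the MATE carrier gene, fell by 2.84 (SE 0.491, limma adjusted p = 0.00498), beside -1.79 in wild type and -1.37 in atx1, and AT5G44580 fell by 2.26 (SE 0.388, limma adjusted p = 0.00488), beside -2.15 and -1.05. AT1G69160 fell by 2.18 (SE 0.323, limma adjusted p = 0.00251), beside -1.79 and -1.12. For these 5 members the atx1 difference was smaller in size than that of wild type, and the difference between the responses was not tested because it uses the arrays of the rule.

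Another 5 named members fell in MYO-OX and differed less, or in the other direction, in atx1. AT4G02540, of the C1-domain family, fell by 1.94 (SE 0.207, limma adjusted p = 0.000706), with -1.47 in wild type and -0.37 in atx1. AT1G35612 fell by 1.77 (SE 0.258, limma adjusted p = 0.00234), with -1.02 and -0.14, and the kinase gene AT1G11280 by 1.62 (SE 0.304, limma adjusted p = 0.00697), with -1.31 and -0.06. The level of AT1G11280 in atx1 was 4.25 and 4.41 in watered plants and 4.21 and 4.33 under deficit, within 1 of each other on all 4 arrays. AT3G43740 fell by 1.42 (limma adjusted p = 0.0123) and AT1G73490 by 0.97 (limma adjusted p = 0.0207), with 0.15 and 0.79 in atx1. AT3G16670 differed from them, with a fall of 1.01 in MYO-OX (limma adjusted p = 0.0483), -1.27 in wild type and -1.51 in atx1. The calls of AT3G43740 and AT3G16670 ended when some single array was left out, and without MYO-OX deficit replicate 2 the limma adjusted p was 0.065 and 0.205. For AT3G16670 the call also ended with median centring, repeated quantile normalization and the intensity trend, at limma adjusted p = 0.09, 0.0622 and 0.0682.

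**Figure D5:**
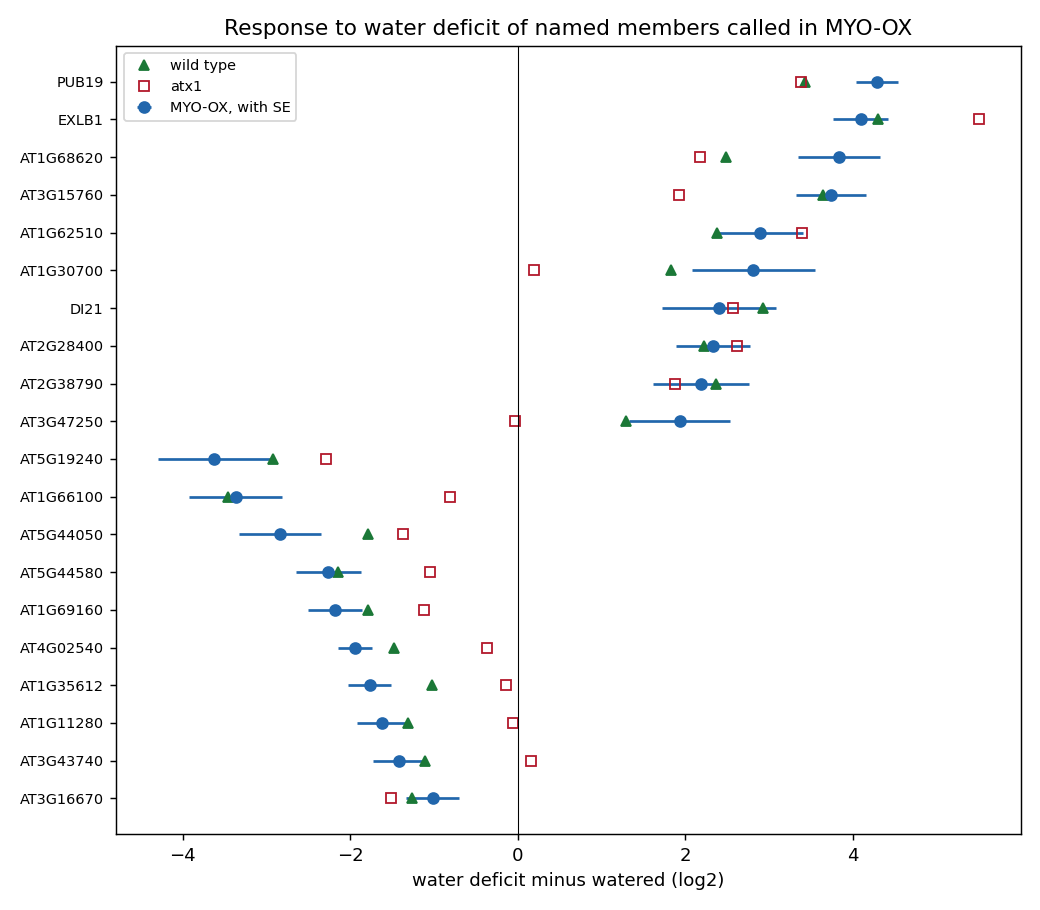
Difference between water deficit and watered plants (log2) for the 20 named members called in MYO-OX, with MYO-OX as blue circles and bars of 1 limma SE, wild type as green triangles and atx1 as open red squares. Wild-type points share the sign of MYO-OX for all 20; atx1 points are nearer 0 than wild type for most of those that fell.

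The receptor, calcium and transcription factor genes did not pass in MYO-OX. None of the 7 receptor genes, the 4 calcium-binding genes and the 5 transcription factor genes reached the threshold in limma, beside 24.7% of all probe sets. These kinds are small and were put together after the values were seen, so nothing is read from the counts. With 2 arrays per group, a gene that did not pass may still have changed. At an unadjusted p under 0.05 limma would count 1 receptor gene, 1 calcium-binding gene and 0 transcription factor genes. Over the whole set it would count 78 members, or 39.6%, beside 36.6% of all probe sets. For CML37 the MYO-OX arrays read 5.002 and 5.37 watered and 6.04 and 8.64 under deficit (limma adjusted p = 0.0706). For AT4G19500 they read 7.27 and 7.59 and then 7.87 and 8.71 (limma adjusted p = 0.0719). In both genes the deficit arrays lay above the watered arrays, with the larger gap set by replicate 2. AT4G27280 and ORA47 had limma adjusted p = 0.636 and 0.666.

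Over the whole set, the deficit response of the members had a median of 0.20 in wild type, 0.07 in atx1 and 0.29 in MYO-OX, and over all probe sets of 0.01, -0.01 and 0.04. In wild type both deficit arrays lay above both watered arrays for 92 members (34% of all probe sets) and below for 44 (33% of all). The counts were 57 (20.9% of all) and 31 (23.6% of all) in atx1 and 66 (29.4% of all) and 38 (27.4% of all) in MYO-OX. A rise of at least 2-fold in the means was seen in 55 members in wild type, 41 in atx1 and 61 in MYO-OX. A fall of that size was seen in 28, 13 and 31. The same counts over all probe sets were not made. The 75th percentile of the response was 1.12, 0.78 and 1.22 over members, beside 0.39, 0.25 and 0.44 over all probe sets. The 25th percentile was -0.49, -0.27 and -0.48, beside -0.41, -0.28 and -0.53. For the 41 members that rose in MYO-OX, the wild-type difference was positive in 41, with a median of 1.94, and the atx1 difference in 38, with a median of 1.32. For the 21 that fell, it was negative in 21 in wild type, with a median of -1.34, and in 18 in atx1, with a median of -0.88.

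Other genes of drought, hormone and defence pathways were listed by locus. Of 134 genes in 12 lists, 23 were listed in the annotation for a probe set of their own, and none of the 23 was a member. The annotation named no gene for 88 members and several for 11, so whether the other listed genes are among these was not checked. ZAT10, a zinc finger gene of stress and touch responses, and JAL22 and JAL33, jacalin lectins, met the thresholds and were among those left out by name. ZAT10 differed by -2.99 and -1.94, JAL22 by -3.94 and -2.28, and JAL33 by -4.08 and -1.92. In the MYO-OX response, limma called 10.7% of all probe sets higher and 14% lower. Beside those shares, it called 5 of 6 dehydration-induced proteins higher, with LEA18 at 6.64 (limma adjusted p = 0.000349), and none lower. It called 1 of 3 auxin genes, 1 of 1 jasmonate gene, 1 of 1 salicylate gene, 1 of 1 root marker and 1 of 2 touch genes lower, 1 of 2 senescence markers higher and the other 1 lower. It called 0 of 4 jacalin genes, 0 of 2 genes linked to ATX1 in the literature, 0 of 1 clock gene and 0 of 1 leaf marker, and no flower marker of 8 was measured under its name. At an unadjusted p under 0.05 limma would count 2 of the 4 jacalin genes, 1 of the 2 linked to ATX1, the clock gene and not the leaf marker. Over all probe sets that share was 36.6%. With so few genes measured in these lists, nothing is read from their counts.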

How the data were processed

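The authors deposited log2 signals made by robust multi-array averaging (RMA), per the submitters' processing notes, which name no version. RNA was extracted with Trizol and 15 ug was labelled, per the labels' protocols. Of 22810 probe sets, 64 controls were set apart. The members were those with a group mean of atx1 minus wild type of -1.5 or below in both water states, after the names left out. Members, gene lists and kinds of genes were chosen with earlier results of these data known. Gene names came from the annotation table of the array, which lists 1 gene for 13513 probe sets, several for 503 and none for 8730, and from the TAIR10.1 gene table. For neighbours and chromosome shares, protein-coding genes alone were used, put in order by chromosome and start position in that table. No sequences were used, and promoter motifs were not looked for.

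In limma 3.58.1 (R 4.3.3), 1 mean for each of the 6 groups was fitted to the log2 values of 12 arrays, with 6 residual and 2.34 prior degrees of freedom, after tests on simulated data. Two-sided p-values were adjusted by Benjamini-Hochberg over 22746 probe sets. Other values came from Python 3.11.15. Levels are means of the deposited log2 values or single arrays, with n = 2 per group, and the number of arrays limits the precision. Nothing in the labels beyond the word biological says how replicates were grown.

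The rule for names took the 25 single-gene members with the lowest mean difference, up to 10 called each way in MYO-OX, 8 with MYO-OX closest to or furthest above wild type, those at the threshold, those in the lists and those with a neighbour that is a member, 49 in all. Genes named outside it were chosen after their values were seen. Alternatives were centring, repeated quantile normalization, a filter on dim probe sets, the replicate block, an intensity trend, the MYO-OX arrays alone, 1 probe set per gene, other thresholds and each array left out. The image files were not used.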

Additional observations from a re-analysis of the deposited data

Results flagged for a closer look

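A few members had deficit responses of opposite sign in 2 genotypes, with both deficit arrays above both watered arrays in one and below both in the other. The difference was not tested for any of them, since wild-type and atx1 arrays chose the members. A higher level in wild type and a lower one in atx1 under deficit was seen in 4 members, beside 1.9% of all probe sets. AT1G25400 had the widest difference of response, 2.23, from 0.73 in wild type and -1.501 in atx1. For 254042_at it was 1.64 (1.34 and -0.29), for AT2G36630, a carrier-like gene, 1.46 (0.89 and -0.57) and for AT2G33220 0.42 (0.16 and -0.25). AT2G36630 also rose in MYO-OX, by 1.89 (SE 0.375, limma adjusted p = 0.00876), and differed there from atx1 by 2.46. MYO-OX and atx1 had opposite signs at AT2G33220 too, with a difference of 0.42, and at 250064_at, with 0.69 (0.65 and -0.05), 3 members in all beside 1.47% of all probe sets.

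The reverse, higher in atx1 under deficit and lower in wild type, was seen in 2 members, beside 1.6% of all probe sets. AT1G73490 differed by 1.87 between atx1 (0.79) and wild type (-1.08) and by 1.76 between atx1 and MYO-OX (-0.97). For 245501_at these differences were 1.39 and 1.71, from 0.13 in atx1, -1.26 in wild type and -1.58 in MYO-OX. The same 2 members, beside 1.14% of all, made up those higher in atx1 and lower in MYO-OX. The shares are below or near those of all probe sets.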

How the results depend on the processing

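The number of members was 456 at a threshold of -1 and 79 at -2, and 73 when the highest atx1 array had to lie at least 1.5 below the lowest wild-type array. It was 173 to 227 with single arrays left out, 256 after median centring of the arrays, 242 with quantile normalization repeated and 196 without the dimmest probe sets. The members called in the MYO-OX response numbered 62, and 35 to 69 with single arrays left out, the lowest without MYO-OX deficit replicate 2. The probe sets called numbered 5616, and 2686 to 7766 with single arrays left out. With the MYO-OX arrays alone 20 members and 1176 probe sets were called. There the calls of AT5G44580, AT1G35612 and AT1G11280 ended, with limma adjusted p = 0.0519, 0.0535 and 0.057, as did those of AT1G30700, DI21, AT3G47250, AT3G43740 and AT3G16670, with 0.126, 0.154, 0.245, 0.101 and 0.115. Other settings gave 62 to 68 members, and 57 without both atx1 deficit arrays, a setting chosen after seeing the data. Of the named responses under the alternatives, 350 kept direction and side of the threshold, 50 kept only the direction and 0 changed sign. The sign of a response could change only where the MYO-OX values changed, by centring, quantile normalization or leaving out a MYO-OX array. Of the named differences, 343 moved by less than the replicate spread and 7 moved more. Leaving out 1 of 2 arrays always moves a group mean by less than their spread, and the filter on dim probe sets moves nothing. Only centring and quantile normalization could therefore count as a move. Replicate numbers were not taken to pair the samples, since deviations of same-numbered arrays did not correlate above 0.1 in every pair of groups. The correlation was 0.514 to 0.561 among the 3 watered groups, 0.499 between the atx1 groups and 0.208 between the MYO-OX groups, and fell to -0.286 between wild type and MYO-OX under deficit. With the replicate number as a block, 66 members (42 higher, 24 lower) and 6766 probe sets were called, and 62 members were shared with the fit without the block. Leaving out 1 array of a pair leaves its group with a single array, which is assumed to vary like the other groups. Members near the bottom of the scale in atx1 have folds that depend on background.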
